A study of Homo sapiens with 16 samples.

Results

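HMGB3, HMCES and H1-10 were the genes whose array signal was higher after dexamethasone in whole-cell RNA and in each of 3 polysome pools of MM1.S, a human multiple myeloma cell line. Of 10163 genes tested, these 3 were called higher in all 4 kinds of RNA, which is 0.0295% of the genes, and 0 further genes were called higher in exactly 3 kinds. A call was an adjusted p-value under 0.05 in limma, which fits a linear model to each gene and steadies its estimate of spread with those of all genes. The genes were therefore chosen on the 4 h responses that are described first, and the p-values of those responses test nothing here. Cells in log-phase growth in medium with 10% serum were exposed to 1 uM dexamethasone, a synthetic glucocorticoid, for 0 or 4 h. The untreated groups are thus the 0 h groups. There was no 4 h group without dexamethasone, so effects of the drug and of the 4 h in culture cannot be told apart. Each of the 8 groups (unfractionated total RNA, pool A, pool B or pool C, at 0 h or at 4 h) held 2 arrays, called N and X here from the first letter of their column names. The labels do not say that the 2 arrays came from separate cultures, so that errors and p-values measure the spread between these arrays, which may be technical. Pools A, B and C hold RNA from polysomes, mRNAs that carry more than 1 ribosome. How they divide the gradient is not known here. A single cell line was studied.

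HMGB3 belongs to the high mobility group box family, small nuclear proteins that bend DNA, and in mice it is known for a role in blood stem and progenitor cells. HMCES forms a covalent link with abasic sites, places in single-stranded DNA where a base has been lost, and shields them from cleavage; in mice it also takes part in antibody class switching in B cells. H1-10, formerly H1FX, is a linker histone, which sits on the DNA between nucleosomes and, unlike the replication-dependent histones, is made throughout the cell cycle. Glucocorticoids act through the glucocorticoid receptor, a transcription factor that enters the nucleus once bound by hormone, and they can kill myeloma cells.

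HMCES and H1-10 are neighbours. In the RefSeq annotation of GRCh38.p14, HMCES lies at chr3:129278832-129306186 on the plus strand and H1-10 at chr3:129314771-129316286 on the minus strand, so that their 3′ ends face each other 8585 bases apart. HMGB3 lies on another chromosome, at chrX:150980507-150990771 on the plus strand. The array carried 4 annotated probes for the 3 genes: 1 for HMGB3, 1 for H1-10 and 2 for HMCES. Because the 3 genes moved together, the 250 bases before a transcription start are shown for each (RefSeq, GRCh38.p14, most upstream start in the table, 5′ to 3′ on the gene's strand). Capitals mark the CCAAT box, the TATA box (searched as TATAAA) and the half-site of the glucocorticoid receptor (searched as AGAACA), each on either strand. The windows are chrX:150983085-150983334 for HMGB3, chr3:129278582-129278831 for HMCES and chr3:129316287-129316536 for H1-10.
HMGB3: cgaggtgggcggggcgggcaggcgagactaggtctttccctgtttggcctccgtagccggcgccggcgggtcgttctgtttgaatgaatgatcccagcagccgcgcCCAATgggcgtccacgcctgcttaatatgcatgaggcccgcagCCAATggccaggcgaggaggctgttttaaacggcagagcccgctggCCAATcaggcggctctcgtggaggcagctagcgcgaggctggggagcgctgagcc
HMCES: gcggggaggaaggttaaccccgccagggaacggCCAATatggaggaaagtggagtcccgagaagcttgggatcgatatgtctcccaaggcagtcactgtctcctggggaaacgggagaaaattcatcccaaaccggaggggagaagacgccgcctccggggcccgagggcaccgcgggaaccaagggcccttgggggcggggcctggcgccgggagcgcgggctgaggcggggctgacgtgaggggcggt
H1-10: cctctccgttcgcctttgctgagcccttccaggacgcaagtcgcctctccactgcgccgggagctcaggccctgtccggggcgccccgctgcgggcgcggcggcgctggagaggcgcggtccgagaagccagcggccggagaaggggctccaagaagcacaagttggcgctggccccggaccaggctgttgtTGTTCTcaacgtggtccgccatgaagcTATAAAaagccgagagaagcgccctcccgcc

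The 3 windows differ in these letters. HMGB3 held 3 matches to CCAAT, starting 144, 101 and 55 bases before the start, and HMCES held 1, 217 bases before it. The second HMGB3 window in the table held 0, as did 3 of the 5 HMCES windows. The HMGB3 window shown lies inside the annotated span of the gene, which begins further upstream. H1-10 held no CCAAT but TATAAA, the TATA box, 31 bases before the start and 1 half-site match, written TGTTCT on this strand, 58 bases before it. Of 35116 windows of the same length in the table, 32% held CCAAT, 10.7% TATAAA and 12.4% AGAACA on either strand. An exact palindrome of the half-site, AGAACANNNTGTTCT, was in 0 of the 8 windows that the table lists for the 3 genes (2 for HMGB3, 5 for HMCES and 1 for H1-10), as against 0.00285% of all windows. At that share a count of 0 says little about receptor sites. Inexact matches and sequence outside these windows were not searched. GGGCGG, the GC box, matched 2 times in each of the HMGB3 and HMCES windows shown and 0 times in that of H1-10, with 10 matches in the second HMGB3 window, and 42.6% of all windows held it. CACGTG, an E-box, was in 0 of the 8 windows and in 6.34% of all. The windows were 66%, 67.2% and 68.4% G and C for HMGB3, HMCES and H1-10, and the median over all windows was 58%.

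As a check of the cell type, 8 of 9 plasma cell markers were detected on all 16 arrays (detection p-value under 0.01), among them SDC1, TNFRSF17, XBP1 and PRDM1, while CD27 was detected on 0. Of 5 T cell and 4 myeloid markers, 0 were detected on all arrays, and CD2 was detected on 1 array. HBB, a globin gene of the erythroid list, was detected on all 16 arrays, and HBA1 on 0. Between 26.11% and 31.3% of 47323 probes were detected on an array, and the arrays of a group correlated at r = 0.9659 to 0.9906 across genes.

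HMGB3 was higher at 4 h on every pair of arrays of 1 kind of RNA. In total RNA its log2 level (background-corrected, quantile-normalized intensity) at 0 h was 8.18 for N and 8.51 for X, and at 4 h it was 9.89 and 9.91. As deposited, before any normalization, those intensities were 440.5, 613.2, 1185 and 1111. In pool A the log2 level was 7.02 and 7.18 at 0 h against 8.55 and 8.39 at 4 h. Pool A thus held the lowest HMGB3 levels of the study at either time. In pool B the levels were 7.37 and 7.36 before and 8.91 and 9.12 after treatment. In pool C they were 8.57 and 8.84 before and 10.34 and 10.59 after. The groups of 1 kind of RNA did not overlap, although the treated pool A arrays stood below the untreated pool C arrays. The log2 difference, 4 h minus 0 h, was 1.55 ± 0.20 (standard error, n = 2 arrays per group; 2.93-fold) in total RNA, 1.37 ± 0.20 (2.59-fold) in pool A, 1.65 ± 0.20 (3.15-fold) in pool B and 1.76 ± 0.20 (3.38-fold) in pool C. The pool A value was 0.86 with no background correction and 0.895 in the deposited value table, and the pool B value was 0.96 there. In bulk RNA, more message per cell and more cells carrying it cannot be told apart.

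HMCES was read by a bright probe and a dim one. On the bright probe, used for the tests, the log2 level in total RNA was 9.94 (N) and 10.18 (X) at 0 h and 11.62 and 11.52 at 4 h, from deposited intensities of 1141, 1554, 3303 and 2780. In pool A the level was 9.26 and 8.998 at 0 h against 10.66 and 10.51 at 4 h. In pool B it was 9.61 and 9.77 against 11.07 and 11.05. All treated arrays of these 3 kinds stood above the untreated arrays of the same kind. Pool C held the highest levels, 11.1 and 11.46 before and 12.83 and 13.14 after treatment. The log2 difference at 4 h was 1.51 ± 0.20 (2.85-fold) in total RNA, 1.45 ± 0.20 (2.74-fold) in pool A, 1.37 ± 0.20 (2.58-fold) in pool B and 1.71 ± 0.20 (3.27-fold) in pool C (standard error, n = 2 arrays per group). The dim probe was detected on 1 of 16 arrays, the X array of treated pool C, where its log2 level was 6.11 against 4.96 and 5.24 in untreated pool C. On its other 15 arrays it was not above background, between 4.50 and 5.66, so it gives no reading of the response.

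H1-10 was higher at 4 h on the same footing, with the smallest spread of the 3 genes. In total RNA its log2 level was 9.86 (N) and 9.90 (X) at 0 h and 11.15 and 11.08 at 4 h, from deposited intensities of 1085, 1326, 2501 and 2137. In pool A it was 9.64 and 9.46 against 10.82 and 10.6. Pool B held its lowest levels, 8.59 and 8.30 at 0 h and 9.85 and 9.60 at 4 h. In pool C the level was 10.43 and 10.27 at 0 h against 12.07 and 12.08 at 4 h. The treated arrays stood above the untreated arrays in each kind of RNA, while the treated pool B arrays stood below the untreated total RNA arrays. The log2 difference at 4 h was 1.23 ± 0.19 (2.35-fold) in total RNA, 1.16 ± 0.19 (2.24-fold) in pool A, 1.28 ± 0.19 (2.43-fold) in pool B and 1.73 ± 0.19 (3.31-fold) in pool C (standard error, n = 2 arrays per group).

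**Figure D1:**
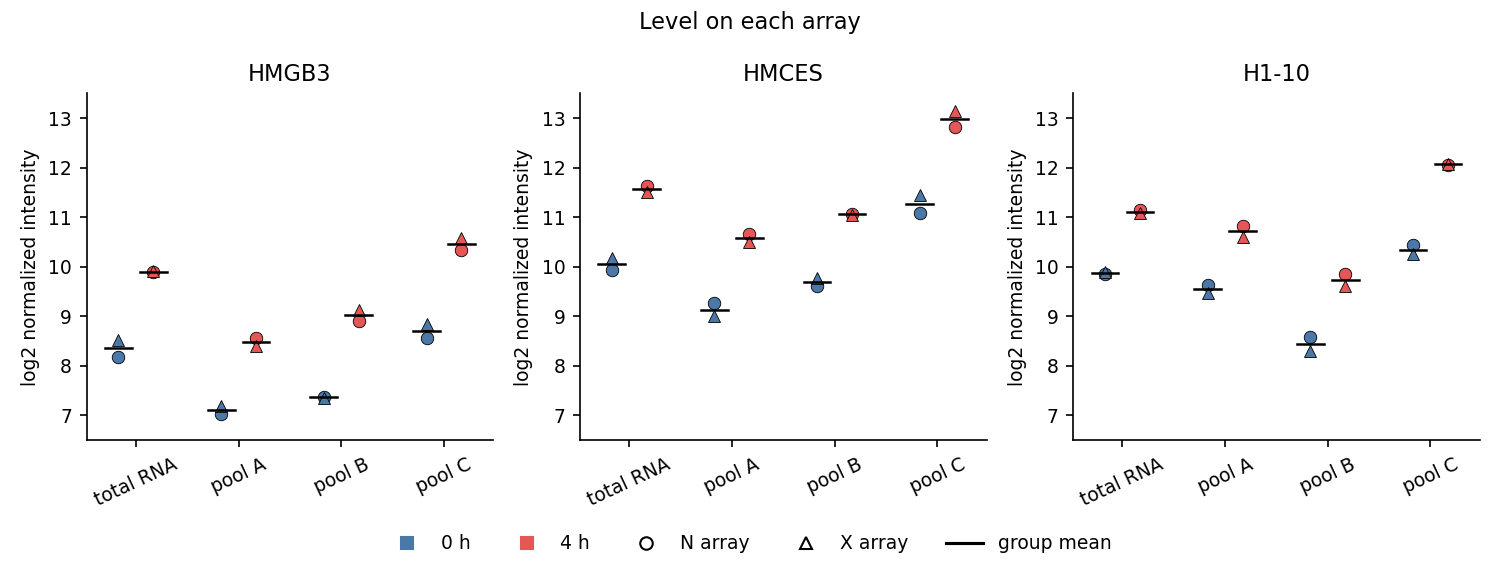
Log2 normalized intensity (vertical axis) of HMGB3, HMCES (bright probe) and H1-10 on each of the 16 arrays, by kind of RNA (horizontal axis), with circles for N arrays, triangles for X arrays, blue for 0 h, red for 4 h and bars for the mean of 2 arrays. Within a kind of RNA both red points lie above both blue points for each gene, pool C is highest, and the lowest pool is A for HMGB3 and HMCES and B for H1-10; heights are not comparable between genes, whose probes differ.

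The shares of all genes that were called higher were small: 0.0886% in total RNA (9 genes), 0.63% in pool A (64 genes), 0.0295% in pool B (3 genes) and 0.0689% in pool C (7 genes). In pool B the 3 genes described here were all of the calls. Called lower were 2 genes (0.0197%) in total RNA, 25 in pool A, where 0.876% of genes were called in either direction, 0 in pool B and 0 in pool C (limma; 681 genes in pool B and 603 in pool C had an unadjusted p under 0.05 in either direction). With arrays scaled to a common median in place of quantile normalization, the calls higher and lower were 3 and 2 in total RNA, 41 and 2 in pool A, 0 and 0 in pool B (656 genes at an unadjusted p under 0.05) and 11 and 3 in pool C. Both treated arrays stood above both untreated arrays in 21.6% of genes in total RNA, 22.9% in pool A, 16.2% in pool B and 17.6% in pool C, and in all 4 kinds at once in 2.12% (215 genes). Standing apart on these arrays was thus shared by many genes. The calls rested on single arrays in several cases. Without the N array of treated pool A all 3 calls in pool A were lost (adjusted p = 0.0743 to 0.121 in limma), and so were all 3 in pool C without its treated X array (0.0677 to 0.0856) and all 3 in total RNA without either N array or the treated X array of total RNA (0.135 to 0.487). In pool B all 3 were lost without any 1 of the 4 pool B arrays (0.0977 to 0.439).

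The arrays of the 3 genes lay close together, a spread that the rule used through the p-values. Of the genes with a larger log2 difference than HMGB3, 3 of 22 were called in total RNA, 32 of 55 in pool A, 0 of 13 in pool B (limma) and 1 of 8 in pool C. The median standard error of these genes was 0.41, 0.345, 0.46 and 0.57. The standard error was 0.20 for HMGB3, 0.20 for HMCES and 0.19 for H1-10, with 9.5%, 12.9% and 4.9% of all genes having a smaller one, and the median gene had 0.26. Just inside the rule, the highest of the 4 adjusted p-values was 0.0131 for HMGB3 and 0.0378 for H1-10 and for HMCES (limma). Just outside stood CEP70, a centrosomal protein, and the Wnt receptor FZD4, each called in 2 kinds of RNA, with highest adjusted p-values of 0.128 and 0.165 (limma).

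**Figure D2:**
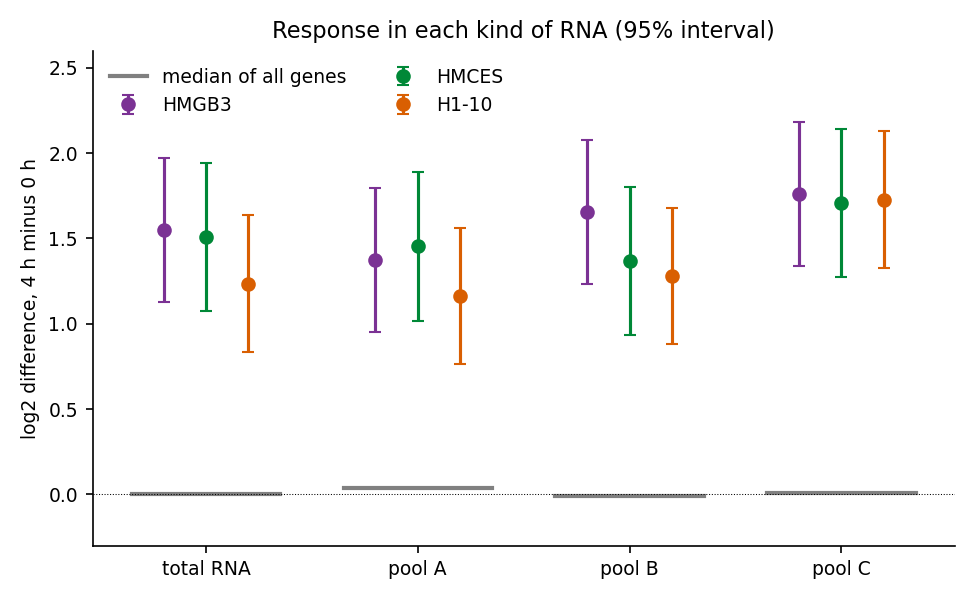
Log2 difference between 4 h and 0 h (vertical axis) in total RNA and the 3 pools (horizontal axis) for HMGB3, HMCES and H1-10, as points with 95% intervals from limma, and the median of all genes as grey bars. All 12 differences lie between 1.16 and 1.76 and the medians of all genes between -0.01 and 0.03, and the intervals of the 4 kinds of RNA overlap for each gene.

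Whether the response of a gene differed between kinds of RNA was tested next as the difference of 2 responses. The responses that enter it chose the genes, which limits how far they could differ. No such difference was called for the 3 genes in 12 comparisons (limma, 0 at an unadjusted p under 0.05), and 0% of all genes were called in any of the 4 contrasts, with 410, 172, 184 and 585 genes at an unadjusted p under 0.05 for pool A, pool B and pool C against total RNA and pool C against pool A. For HMGB3 the response in pool C minus that in total RNA was 0.21 (95% interval -0.39 to 0.80) on the log2 scale. For HMCES it was 0.20 (-0.41 to 0.81). For H1-10 it was 0.49 (-0.07 to 1.06), and the response in pool C minus that in pool A was 0.56 (-0.00 to 1.13), with an adjusted p of 0.861 in limma. This last value depended on the processing, at 0.05 with median scaling and 0.06 in the deposited value table. In the same contrast HMCES went from 0.255 to -0.37 and -0.23, while HMGB3 went from 0.39 to 0.39 and 0.68. The intervals leave room for a response up to 1.06 log2 units larger in pool C than in total RNA. For pool A minus total RNA the differences were -0.18 (-0.77 to 0.42) for HMGB3, -0.06 (-0.67 to 0.56) for HMCES and -0.07 (-0.64 to 0.50) for H1-10, and all 3 turned positive with median scaling (0.035, 0.42 and 0.40), which moved the median of all genes in this contrast from 0.03 to 0.27. For pool B minus total RNA they were 0.10 (-0.49 to 0.70) for HMGB3, -0.14 (-0.76 to 0.47) for HMCES and 0.05 (-0.52 to 0.61) for H1-10, with HMGB3 at -0.27 in the deposited value table, HMCES at 0.04 with median scaling and H1-10 at -0.11 without the 4 untreated X arrays.

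The levels in the pools relative to total RNA were not a contrast of the rule, but they use the same arrays and the same spread, so their p-values rest on a spread that the choice of genes favoured to be small. At 0 h, HMGB3 was lower in pool A than in total RNA by a log2 difference of -1.25 ± 0.20 (2.38-fold, adjusted p = 0.000235 in limma) and lower in pool B by -0.99 ± 0.20 (adjusted p = 0.00147). In pool C it differed by 0.36 ± 0.20 (adjusted p = 0.187 in limma), which did not pass. HMCES was lower in pool A by -0.93 ± 0.20 (1.91-fold, adjusted p = 0.00203 in limma) and higher in pool C by 1.21 ± 0.20 (2.32-fold, adjusted p = 0.000968), and its difference in pool B, -0.37 ± 0.20, did not pass (adjusted p = 0.154). H1-10 was lower in pool B by -1.44 ± 0.19 (2.71-fold, adjusted p = 0.000121 in limma), whereas pool A, at -0.33 ± 0.19 (adjusted p = 0.157), and pool C, at 0.47 ± 0.19 (adjusted p = 0.0748), did not pass. In these contrasts many genes moved: 48.6% of all genes were called in pool A (29.9% lower), 42.9% in pool B (18.2% higher and 24.6% lower) and 29.3% in pool C (14.1% higher), and the medians of all genes were -0.19, -0.11 and 0.06. A call in a pool is thus common in these data, and the counts of the 3 genes are not set against chance. Calls higher and lower numbered 1899 and 3042 in pool A, 1852 and 2505 in pool B and 1428 and 1546 in pool C. They numbered 546 and 5791, 1121 and 3809, and 2761 and 1166 with median scaling, which put the medians of all genes at -0.87, -0.40 and 0.28. The direction of each of these 9 differences was the same under every alternative, but all 4 that did not pass did so with median scaling. HMGB3 in pool C was then at 0.67 (adjusted p = 0.0495 in limma), HMCES in pool B at -0.755 (0.0181), H1-10 in pool A at -1.38 (9.13e-05) and H1-10 in pool C at 0.92 (0.00679). In the deposited value table HMCES in pool B (-0.74, adjusted p = 0.00884 in limma) and H1-10 in pools A (-0.71, 0.000995) and C (0.71, 0.00204) passed too. Without the 4 untreated X arrays HMGB3 in pool B (-0.81, adjusted p = 0.0626 in limma) and HMCES in pool A (-0.69, 0.082) did not. No difference between the 3 genes was tested.

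Pool C stood above pool A for each gene at 0 h. The log2 difference was 1.61 ± 0.20 for HMGB3 (3.05-fold, adjusted p = 1.61e-05), 2.15 ± 0.20 for HMCES (4.43-fold, adjusted p = 1.92e-06) and 0.80 ± 0.19 for H1-10 (1.74-fold, adjusted p = 0.00256), all in limma. In this contrast 34.2% of all genes were called higher and 21.4% lower, and the median gene was at 0.26. Calls were 3472 higher and 2173 lower, or 6543 and 920 with median scaling, which moved the median gene to 1.16 and the 3 genes to 2.81, 3.53 and 2.29. In the deposited value table the 3 genes were at 1.34, 2.52 and 1.42, so that HMCES had the largest difference in all 3 processings while the order of HMGB3 and H1-10 changed.

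H1-10 was lower in pool B than in pool A, in a comparison added after the levels had been seen. The fall was 2.15-fold at 0 h (adjusted p = 0.000914 in limma) and a log2 difference of -0.99 ± 0.19 at 4 h (adjusted p = 0.00198). HMCES was at 0.56 ± 0.20 at 0 h (adjusted p = 0.0576) and 0.48 ± 0.20 at 4 h (adjusted p = 0.1), and HMGB3 at 0.26 ± 0.20 (adjusted p = 0.352) and 0.54 ± 0.20 (adjusted p = 0.0564), none of which passed in limma. Of all genes, 14.2% were called higher and 10.7% lower in pool B than in pool A at 0 h, and 13.1% and 12.3% at 4 h (1446 and 1087 genes, and 1327 and 1246). With median scaling the counts were 3321 and 485, and 1468 and 745. Under that scaling H1-10 was at -0.51 at 0 h (adjusted p = 0.105 in limma) and -0.79 at 4 h (adjusted p = 0.0254), HMCES passed at 1.19 and 0.81 (adjusted p = 0.00134 and 0.0257), and the median gene moved from 0.08 to 0.45 and from 0.02 to 0.10. HMGB3 was at -0.02 at 0 h in the deposited value table.

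At 4 h the directions against total RNA were those seen at 0 h. HMGB3 was at -1.43 ± 0.20 in pool A (adjusted p = 1e-04 in limma), -0.88 ± 0.20 in pool B (adjusted p = 0.00277) and 0.57 ± 0.20 in pool C (adjusted p = 0.0432), each against total RNA on the log2 scale. That call in pool C was lost without any 1 of the 8 treated arrays, with adjusted p-values from 0.05 to 0.202. HMCES was at -0.99 ± 0.20 in pool A (adjusted p = 0.00148 in limma), -0.51 ± 0.20 in pool B (adjusted p = 0.0535) and 1.41 ± 0.20 in pool C (adjusted p = 0.000319). The pool B value passed without any 1 of the 4 pool C arrays (adjusted p = 0.0485 to 0.0493 in limma). With median scaling it was at -0.715 (adjusted p = 0.0228 in limma) and in the deposited value table at -0.775 (0.0067). H1-10 was at -0.40 ± 0.19 in pool A (adjusted p = 0.0938 in limma, but 0.00229 with median scaling and 0.0274 in the deposited value table), -1.39 ± 0.19 in pool B (adjusted p = 0.000149) and 0.96 ± 0.19 in pool C (adjusted p = 0.00246). Pool C stood above pool A by 1.99 ± 0.20 for HMGB3 (adjusted p = 2.77e-06), 2.40 ± 0.20 for HMCES (adjusted p = 8.5e-07) and 1.36 ± 0.19 for H1-10 (adjusted p = 4.14e-05, limma). At this time 45.9% of all genes were called in pool A (27.2% lower), 44.1% in pool B (25.7% lower) and 29.9% in pool C (14.1% higher) against total RNA, and 56.2% in pool C against pool A (33.3% higher and 23% lower). Higher and lower calls were 1903 and 2762, 1876 and 2610, 1428 and 1606, and 3380 and 2336. With median scaling they were 804 and 4801, 957 and 4243, 3135 and 1105, and 6066 and 1188.

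**Figure D3:**
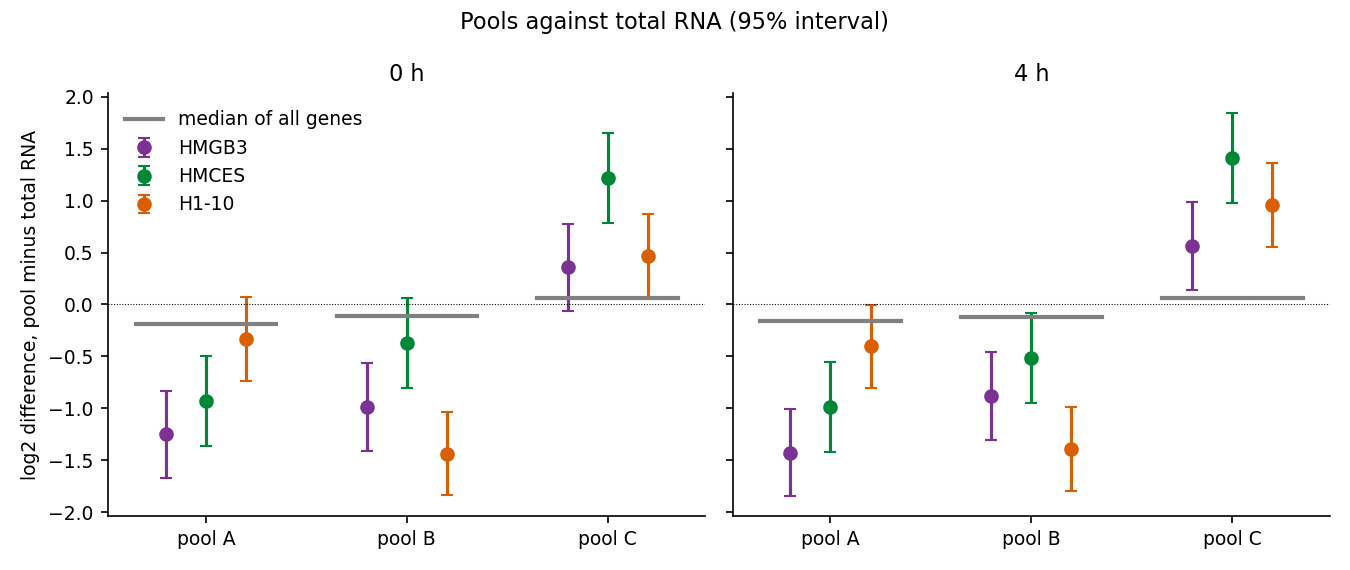
Log2 difference between a pool and total RNA (vertical axis) for pools A, B and C (horizontal axis) at 0 h (left) and 4 h (right), as points with 95% intervals from limma for HMGB3, HMCES and H1-10 and grey bars for the median of all genes. Pool C lies above 0 for all 3 genes, from 0.36 to 1.41, and the lowest point is pool A for HMGB3 and HMCES and pool B for H1-10 at both times.

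The differences between the 2 untreated arrays of a group are given here as a description, since their small size entered the p-values that chose the 3 genes. X minus N at 0 h, on the log2 scale, was 0.33, 0.16, -0.02 and 0.27 for HMGB3 in total RNA, pool A, pool B and pool C. It was 0.23, -0.26, 0.16 and 0.36 for HMCES and 0.04, -0.17, -0.28 and -0.17 for H1-10. TSC22D3, the glucocorticoid-induced leucine zipper, had differences of 2.38, 1.59, 1.75 and 2.38 between the same arrays, and DDIT4, an mTORC1 inhibitor, of 3.19, 2.64, 2.46 and 2.91. Of the 10 tested glucocorticoid receptor targets, TXNIP and the kinase SGK1 had the closest untreated arrays. Their mean absolute differences at 0 h were 0.257 and 0.275, against 0.195 for HMGB3, 0.254 for HMCES and 0.166 for H1-10. NFKBIA, PER1 and DUSP1 were at 0.406, 0.427 and 0.456. The mean absolute difference was 1.24 for FKBP5, 1.58 for CXCR4, 1.67 for KLF9, 2.03 for TSC22D3 and 2.8 for DDIT4. At 4 h the differences of TSC22D3 lay between 0.14 and 0.31. TSC22D3 had a larger response in total RNA than any of the 3 genes, 2.17 ± 0.82, but was not called (adjusted p = 0.868 in limma). Of 10 tested targets of 11 listed as a check of the treatment, 10 had positive differences in total RNA, with a median of 1.65 against 0.00 for all genes, and 0 were called (limma, 8 at an unadjusted p under 0.05), while 1, TXNIP, a thioredoxin inhibitor, was called in pool C (1.40, adjusted p = 0.0133). With the untreated X arrays left out of all 4 kinds, the responses of HMGB3 were 1.72 in total RNA and 1.90 in pool C, those of HMCES 1.62 and 1.87, and that of H1-10 in total RNA 1.25. Not every response rose, and those of HMCES in pool A and of H1-10 in pools A and B were smaller than with all arrays. The response in pool A minus that in total RNA was then -0.296 for HMCES and -0.18 for H1-10, against -0.06 and -0.07 with all arrays. For H1-10 in pool B this difference was -0.11, against 0.05 with all arrays. In that fit, which has 1 untreated array per group, 8 of the 12 responses were called.

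**Figure D4:**
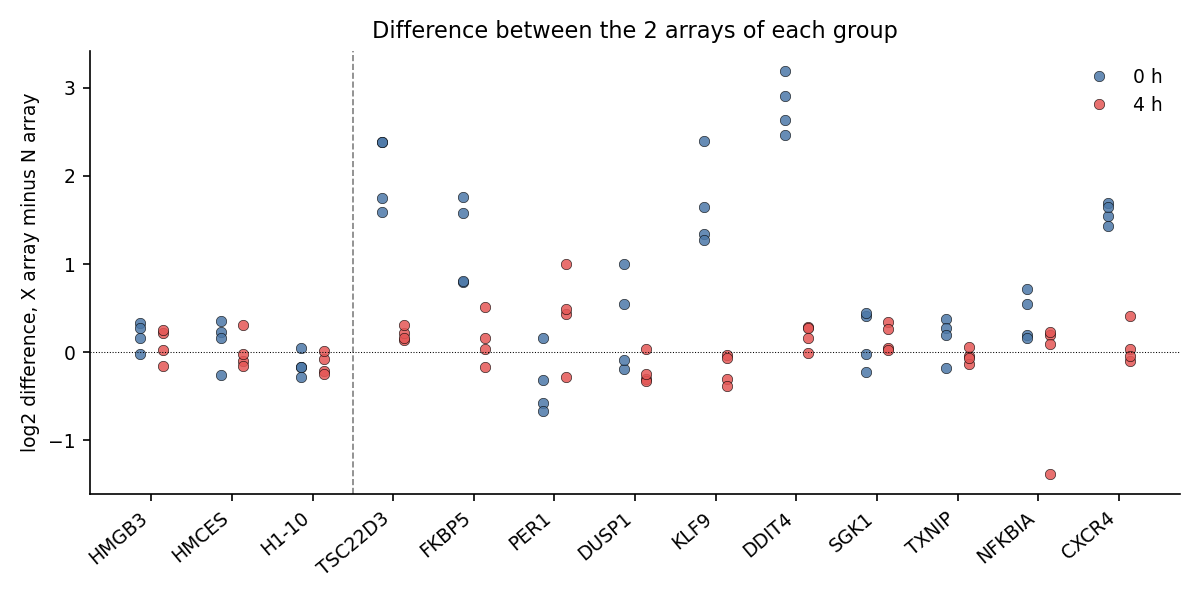
Log2 difference between the X and the N array of a group (vertical axis) for HMGB3, HMCES, H1-10 and, right of the dashed line, 10 glucocorticoid receptor targets, with 1 point for each of 4 untreated (blue) and 4 treated (red) groups. The 3 genes stay between -0.28 and 0.36, while untreated differences reach 2.38 for TSC22D3 and 3.19 for DDIT4 and those of TXNIP stay within -0.18 and 0.38.

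Counts over related genes are read against the shares of all genes called in either direction, 0.108% in total RNA, 0.876% in pool A, 0.0295% in pool B and 0.0689% in pool C, at which a short list holds no call in most cases. Of 17 other high mobility group proteins and HMG-box factors listed, 13 were tested, and 0 were called in any kind of RNA (limma, 2 in pool A and 0 elsewhere at an unadjusted p under 0.05). Their median log2 difference was -0.06 in total RNA, 0.06 in pool A, 0.07 in pool B and 0.01 in pool C, against 0.00, 0.03, -0.01 and 0.01 for all genes. HMGB1 and HMGB2, the closest relatives of HMGB3, were at -0.06 ± 0.25 and -0.21 ± 0.35 in total RNA (standard error, n = 2 arrays per group). HMGN4, a nucleosome-binding protein, was at -0.31 ± 0.28, and HMG20B, a subunit of a histone demethylase complex, at 0.21 ± 0.18. The probe of a pseudogene, HMGB3P1, was detected on 0 arrays.

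Linker histones gave little to compare, since 1 of the 9 others listed was tested. H1-2, one of the main somatic linker histones, stood at a log2 level of 7.44 and 7.60 at 0 h and 7.28 and 7.89 at 4 h in total RNA, so that its groups overlapped. Its log2 difference was 0.07 ± 0.28 in total RNA, 0.48 in pool A, -0.20 in pool B and -0.10 in pool C, with adjusted p = 1 in total RNA (limma). The probes of 5 others were detected on no array, and those of H1-1 and H1-7 on 1 each.

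A list of 30 genes covered base excision repair and the handling of abasic sites, the sites that HMCES binds. Of these genes 26 were tested and 0 were called in any kind of RNA, as most lists of this length would give at these shares (limma, with 0 in total RNA, 1 in pool A, 1 in pool B and 2 in pool C at an unadjusted p under 0.05). The median log2 difference was -0.05 in total RNA, -0.01 in pool A, -0.01 in pool B and 0.07 in pool C. The largest absolute differences in total RNA were those of TDG, a thymine DNA glycosylase, at -0.46 ± 0.24, the flap nuclease FEN1 at -0.38 ± 0.21, the alkyladenine glycosylase MPG at -0.29 ± 0.19 and the translesion polymerase POLH at 0.28 ± 0.33. Of the 4, MPG and POLH were each detected on 6 of 16 arrays, with mean log2 levels of 5.58 and 5.66, close to background. None of these 4 passed (adjusted p = 1 for each in limma).

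The genes around HMCES and H1-10 are given by their values, since at most 0.876% of all genes were called and a count of 0 among so few says little. Of the 10 protein-coding genes on each side of HMCES, 19 besides H1-10, 10 were tested and 0 were called in any kind of RNA (limma, with 0 in total RNA, 2 in pool A, 0 in pool B and 1 in pool C at an unadjusted p under 0.05), with a median log2 difference of -0.05 in total RNA and 0.03 to 0.04 in the pools. COPG1, a coat protein gene whose end lies 1059 bases before the start of HMCES, was at -0.09 in total RNA, -0.09 in pool A, 0.11 in pool B and 0.02 in pool C. CNBP, a nucleic acid-binding protein further upstream, was at -0.04, -0.08, 0.03 and 0.05. On the far side of H1-10 the nearest tested genes were MBD4, a DNA glycosylase gene 114661 bases away, at 0.08, -0.37, 0.03 and -0.05, and IFT122, a cilium transport gene, at 0.35, 0.64, -0.09 and 0.39.

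Around HMGB3 5 of 20 neighbours were tested and 0 were called, which is as little informative (limma, with 1 or 2 at an unadjusted p under 0.05 in each kind of RNA). CD99L2, a membrane protein gene that ends 81839 bases before HMGB3, was the nearest. Its log2 levels in total RNA were 9.73 and 10.45 at 0 h and 10.92 and 11.36 at 4 h. In pool A they were 8.47 and 8.98 against 10.42 and 10.22. In pool B they were 8.66 and 9.42 against 9.99 and 10.30, and in pool C 10.05 and 10.865 against 11.07 and 11.53. The treated arrays stood above the untreated ones in each kind of RNA, as in 2.12% of all genes. The log2 differences of CD99L2 were 1.05 in total RNA, 1.60 in pool A, 1.11 in pool B and 0.84 in pool C, with adjusted p-values of 0.662, 0.0508, 0.453 and 0.77 (limma). MTM1, a lipid phosphatase gene, was at 0.47, 0.56, 0.20 and 0.54. On the other side VMA21, an assembly factor of the proton pump of vesicles, was at 0.09, 0.01, -0.11 and -0.18, and the receptor subunit GABRE at 0.65, 0.83, -0.05 and 0.18.

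**Figure D5:**
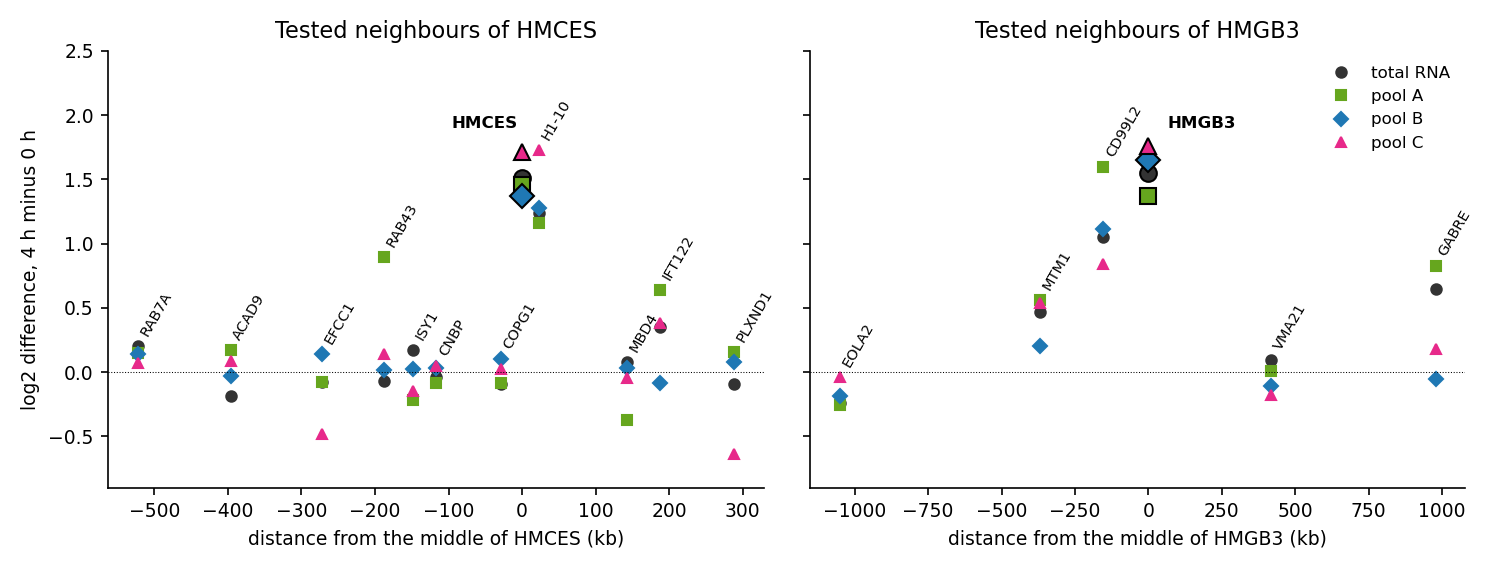
Log2 difference between 4 h and 0 h (vertical axis) in total RNA (circles), pool A (squares), pool B (diamonds) and pool C (triangles) for the tested genes among the 10 on each side of HMCES (left) and HMGB3 (right), by distance between gene middles in kb (horizontal axis); large symbols are HMCES and HMGB3. H1-10 lies beside HMCES at 1.16 to 1.73, other tested neighbours of HMCES stay at or below 0.895, and CD99L2 lies beside HMGB3 at 0.84 to 1.60.

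Over the 16 arrays the 3 genes followed each other, which partly restates their choice: all were chosen for a rise at 4 h in every kind of RNA, and the arrays share that time structure and the pools. Pearson's r of log2 levels was 0.958 between HMGB3 and HMCES, 0.859 between HMGB3 and H1-10 and 0.841 between HMCES and H1-10. HMGB3 and HMCES, on different chromosomes, were each other's nearest gene of all tested, whereas the adjacent H1-10 was 78th in the order for HMCES and 41st for HMGB3. Among the 8 untreated arrays alone r was 0.905, 0.717 and 0.605 for the same pairs, and among the 8 treated arrays 0.944, 0.752 and 0.803. After HMCES, the genes most like HMGB3 were LRRC1 (r = 0.941), CD99L2 (0.935), TRIM5 (0.931) and SPATS2L (0.931). Those most like HMCES after HMGB3 were MFSD6 (0.957), IFNGR1 (0.949), HAVCR2 (0.947) and INPP1 (0.945). Those most like H1-10 were LAPTM5 (0.967), TOX2 (0.953), SESN1 (0.949), UBE3A (0.927) and AKR1C3 (0.92). These genes were picked for following genes that rise at 4 h, so their own responses are not read here.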

How the data were processed

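The authors deposited, per the file headers, a non-normalized table with an intensity and a detection p-value for 47323 probes on each of 16 Illumina arrays, and a value table whose values lie on a log2 scale. The sources used here do not give its normalization, nor whether it was centred. Its scale and direction were taken from its values: 16 of 16 arrays correlated best with a value column of their own group (smallest r = 0.9958). Its 4 total RNA columns had medians of 7.21 or 7.211 and the pool columns 7.237 to 7.409. Labelling used an Ambion amplification kit, per the labels.

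Intensities were corrected with limma's nec (normexp on detection p-values, offset 16), quantile-normalized and put on a log2 scale (R 4.3.3, limma 3.58.1). Probes detected (p under 0.01) on at least 2 arrays were kept, 17269 in all. Of these 13289 had 1 gene symbol, updated through the reference gene table, and each of 10163 genes was represented by its brightest probe on average. Of the 4 probes of the 3 genes 3 were kept. A mean was fitted per group over all 16 arrays (lmFit, contrasts, eBayes; 8 residual and 5.36 prior degrees of freedom), with Benjamini-Hochberg adjustment of each comparison over all genes. The method was tested on simulated arrays. The number of arrays limits the precision.

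Genes, lists and alternatives were chosen with earlier results of these data known. Named genes were HMGB3, HMCES and H1-10, up to 4 members per list (largest change in total RNA; HMGB1 was named after its values were seen), the nearest tested neighbours, and the 5 genes of highest correlation. Alternatives were median scaling, no background correction, the value table, other filters, probe means, replicate blocks, the arrays of a comparison alone, leaving out each array, and leaving out the 4 untreated X arrays. Promoter windows are from RefSeq.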

Additional observations from a re-analysis of the deposited data

How the results depend on the processing

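HMGB3, HMCES and H1-10 were chosen on their 12 responses, and the alternatives used the same arrays. Positive responses were therefore nearly bound to recur, and their recurrence is no test of the responses. All 12 responses were positive in every alternative, but the number called after adjustment varied. It was 12 as reported, 6 with median scaling, 7 in the deposited value table and 3 with the arrays of a comparison alone, which leaves few degrees of freedom. Leaving out each array in turn gave 7 to 12. The responses themselves then ranged from 1.05 to 1.91 on the log2 scale. In pool B, HMCES and H1-10 kept their calls in 4 of 16 such fits, those that left out a pool A array. Differences between responses stayed at 0 calls throughout, with signs that changed in 28 of 312 values. Of 12 pool contrasts, 8 were called at 0 h (8 without any 1 array, 6 without the 4 untreated X arrays, 12 with median scaling) and 10 at 4 h (9 to 11 without 1 array, 12 with median scaling), and 0 of these changed sign. Calls over all 10163 genes shifted too (limma). In pool A against total RNA at 0 h, median scaling called 546 genes higher and 5791 lower, against 1899 and 3042 as reported. In pool C against pool A at 0 h it called 6543 and 920, against 3472 and 2173. Whether arrays of equal replicate number form pairs is not settled here. Prefix and replicate number divide the arrays alike: each N array correlated best with the replicate 1 value column of its group and each X array with replicate 2. X minus N differences of a kind of RNA at 0 h and 4 h correlated across genes at 0.262 to 0.353 by prefix. By replicate number in the value table they correlated at 0.378 to 0.435. Among the 6 pairs of untreated groups the lowest correlations were 0.25 and 0.306, but over all 28 pairs of groups they were -0.076 and -0.056. With the replicate block on the deposited value table the counts were 12 responses, 0 differences, 12 at 0 h and 12 at 4 h, and with arrays of equal prefix as a block 12, 0, 9 and 12. The prefix block added H1-10 in pool C at 0 h (adjusted p = 0.0355 in limma), HMCES in pool B at 4 h (0.0393) and H1-10 in pool A at 4 h (0.0488).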

Other observations

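Other genes separated the treated from the untreated arrays more widely than HMGB3, HMCES and H1-10, whose levels depended on the pool. In 24 of 10163 genes all 8 treated arrays stood above all 8 untreated arrays whatever the kind of RNA, and in 5 genes all stood below. The genes named here were chosen after these values were seen, as those with the widest gap. FZD4 had the widest, 1.09 log2 units between its lowest treated and its highest untreated array, followed by GCSAM, a signalling protein of germinal centre B cells, at 0.98, CEP70 at 0.905 and FAR2, which makes fatty alcohols, at 0.79. The chemokine receptor CXCR4 was at 0.77, with responses of 2.23, 2.16, 2.21 and 2.23 in total RNA, pool A, pool B and pool C. PIK3IP1, an inhibitor of PI3 kinase, was at 0.59 and the muscle-atrophy ubiquitin ligase FBXO32 at 0.50. GCSAM, CXCR4, PIK3IP1 and FBXO32 were called in at most 1 kind of RNA in limma, GCSAM in pool A (adjusted p = 0.0125).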
